A study of Mus musculus with 12 samples.

Results

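The cytosolic ribosomal protein genes were taken as every gene whose symbol has the stem Rpl or Rps followed by a number, with or without the letters that mark an isoform or paralog, together with Rplp0, Rplp1, Rplp2 and Rpsa. This rule found 84 of the 21493 genes in the count tables. Of these, 52 encode proteins of the large (60S) subunit and 32 proteins of the small (40S) subunit. Adult cardiomyocytes came from enzymatically perfused hearts of mice aged 3 months, and their polyadenylated RNA was sequenced. Wild-type animals (Des+/+) were set against animals without desmin, the intermediate filament protein of muscle (Des-/-), and each genotype was sampled with swimming exercise (swim) and without it (non-swim). There were 4 groups with 3 libraries in each, a library being the pooled cells of several mice, so that a p-value measures the spread between pools of animals.

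Des itself lay between 973 and 3647 CPM (counts relative to the scaled library size) in the 6 Des+/+ libraries and between 50.3 and 101 CPM in the 6 Des-/- libraries, with no overlap. Reads assigned to genes ranged from 4320819 to 12072443 per library. All 8 cardiomyocyte markers checked (such as Myh6 and Tnnt2) were present in every library, but their summed level was lower in Des-/- cells. Among non-swim libraries it was 56748 to 87114 CPM with desmin and 5581 to 24406 CPM without, and among swim libraries 28895 to 48498 CPM and 14790 to 25028 CPM. In Des-/- cells without swimming, all 8 were called lower, with a median log2 change of -2.16, while 8 of 8 fibroblast markers, 7 of 8 macrophage markers, 2 of 3 tested lymphocyte markers, 5 of 5 erythrocyte markers and 6 of 8 genes that respond to cell isolation were called higher. None of 7 endothelial or 6 mural markers was called. After swimming, 1 of 8 cardiomyocyte markers was called lower (median -0.83) and 4 of 8 isolation-response genes were called higher (median 0.91), while no fibroblast or macrophage marker was called, with medians of 1.18 and 1.17. In these pooled cells, fewer cells of a type and less RNA per cell cannot be told apart, and the part of cell composition in the results below was not tested. Des-/- non-swim replicate 3 stood apart, with the lowest cardiomyocyte and the highest macrophage sum (4205 CPM). The Rpl3l change and the number of called ribosomal protein genes are given with and without it. For the paralog ratios only ranges over fits without single libraries are given, and the marker calls include it.

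The cytosolic ribosome reads mRNA on its small subunit and joins amino acids on its large subunit. Nearly every ribosomal protein is present in a single copy per ribosome, so the genes are usually expressed together and at high level. Their mRNAs belong to the terminal oligopyrimidine class: they begin with a run of C and T through which the kinase complex mTORC1 and the RNA-binding protein Larp1 set their translation. A few ribosomal proteins have a paralog that replaces them in some tissues. The best known in the heart is Rpl3l, which takes the place of Rpl3, a core protein next to the peptidyl transferase centre, in striated muscle after birth.

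The starts of 64 of the 84 genes were in the RefSeq promoter table (GRCm38.p6). A run of at least 8 C or T on the transcribed strand, within 50 bases before to 50 bases after an annotated start, was present in 53 of these 64 genes (82.8%). The same run was present at 37.6% of 10459 tested genes and at 39.3% of 27025 genes in the table. The letters CCGGAAG, the core of the site of ETS factors, were found on either strand in 14 of 64 ribosomal protein genes (21.9%) and in 12.1% of tested genes; read on the other strand they can overlap a run of C and T. The windows printed here cover 25 bases before and 20 bases from the start, with the longest run of at least 8 C or T in capitals. They are those of 3 genes that were called higher in Des-/- cells (Rpl13a, Rps12 and Rpl22l1) and of the gene with the most reads (Rpl4). The last is that of Rpl3l, which was called lower. It has no run of that length in the printed window of its first start. In the wider window around an annotated start Rpl3l has a run of 9, so it is among the 53. Other genes called higher, such as Rpl10 and Rpl6, also lack such a run in the printed window. A link between the run and the direction of change was not tested.
Rpl13a: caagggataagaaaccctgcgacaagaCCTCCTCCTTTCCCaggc
Rps12: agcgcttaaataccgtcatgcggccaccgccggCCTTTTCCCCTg
Rpl22l1: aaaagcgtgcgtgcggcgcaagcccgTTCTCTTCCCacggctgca
Rpl4: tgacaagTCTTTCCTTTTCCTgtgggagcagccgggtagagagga
Rpl3l: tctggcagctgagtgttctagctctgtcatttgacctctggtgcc
These windows lie at chr7:45128726-45128770 on the minus strand for Rpl13a, at chr10:23787190-23787234 on the minus strand for Rps12, at chr3:28805483-28805527 on the plus strand for Rpl22l1, at chr9:64173362-64173406 on the plus strand for Rpl4 and at chr17:24727801-24727845 on the plus strand for Rpl3l.

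The 84 genes together took a larger part of the reads in Des-/- than in Des+/+ libraries. They held 1.59%, 1.45% and 2.02% of assigned reads in Des+/+ non-swim libraries, 2.15%, 1.85% and 1.85% in Des+/+ swim libraries, 2.86%, 2.12% and 2.47% in Des-/- non-swim libraries and 3.15%, 2.88% and 2.79% in Des-/- swim libraries. The genotypes did not overlap in either condition, and the ratio of the Des-/- to the Des+/+ level (geometric means) was 1.47 without and 1.51 after swimming. A share depends on the other genes in the library: without swimming, the 100 most abundant other genes held 21.2% to 23.6% of Des+/+ reads and 15.7% to 17.2% of Des-/- reads. Counted only among reads outside those 100 genes, the ratios were 1.37 and 1.47.

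**Figure D1:**
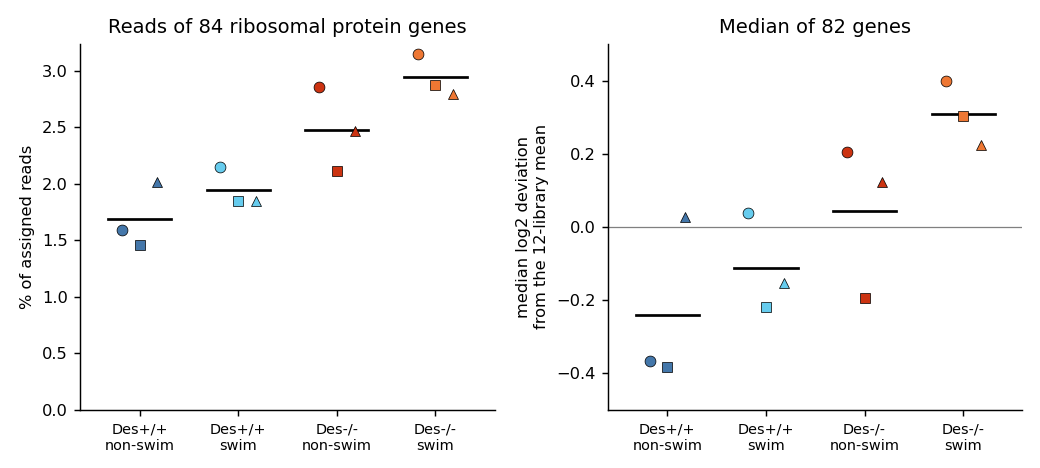
Percentage of assigned reads in the 84 ribosomal protein genes (left) and the median log2 deviation of the 82 tested genes from their mean over the 12 libraries, after scaling (right), for each library of the 4 groups; circles, squares and triangles are replicates 1, 2 and 3 and bars are group means. The shares of the 2 genotypes do not overlap in either condition, while in the scaled medians Des-/- non-swim replicate 2 (-0.19) lies below Des+/+ non-swim replicate 3 (0.028).

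After TMM scaling of the libraries, the shift was smaller. Of the 84 genes, 82 had enough reads to be tested; Rpl39l and Rpl10l, both known from testis, were not. The median log2 change of the 82 genes in Des-/- against Des+/+ cells was 0.29 without swimming and 0.41 after swimming, beside 0.04 and 0.02 over all 13158 tested genes. The large subunit (0.27 and 0.40) and the small subunit (0.31 and 0.44) had similar medians. The ratio of small to large subunit reads had means of 0.696 ± 0.0366, 0.722 ± 0.0136, 0.706 ± 0.0138 and 0.715 ± 0.0137 (SD, n = 3) in the Des+/+ non-swim, Des+/+ swim, Des-/- non-swim and Des-/- swim groups, and these overlapped. In single libraries, the median deviation of the 82 genes from their own mean was -0.37, -0.38 and 0.028 in the Des+/+ non-swim group, 0.039, -0.22 and -0.15 in the Des+/+ swim group, 0.20, -0.19 and 0.12 in the Des-/- non-swim group and 0.40, 0.30 and 0.22 in the Des-/- swim group. The genotypes therefore overlapped without swimming and did not overlap after it.

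Without swimming, 75 of the 82 genes had a higher mean in Des-/- cells, but only 11 passed the test (edgeR's quasi-likelihood test, adjusted p under 0.05 over all genes), 10 of them higher and Rpl3l lower. A higher mean in Des-/- cells was found for 6920 of all 13158 tested genes. Of all tested genes, 32% were called in this comparison and 14% were called higher, beside 13.4% of the 82 genes called. The 3 libraries of each genotype did not overlap, with Des-/- higher, in 8 of the 82 genes (9.76%), against 23% of all tested genes. After swimming, 76 of 82 genes had a higher mean in Des-/- cells and 12 passed the test, all of them higher, where 10.6% of all tested genes were called and 5.01% were called higher. A higher mean was found there for 6792 of all 13158 tested genes. Here the libraries of the genotypes did not overlap, with Des-/- higher, in 54 of 82 genes, against 17.3% of all tested genes. At an unadjusted p under 0.05 there were 24 of 82 genes without and 44 of 82 genes after swimming. Over all 13158 tested genes these numbers were 5747 without and 4009 after swimming. Rpl3, Rpl13a, Rps20 and Rpl32 were called in both comparisons.

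These counts depended on single libraries. Without swimming, leaving out replicate 1 or 2 of the Des+/+ group or replicate 1 of the Des-/- group left 2 called genes, Des-/- replicate 3 left 3, and Des-/- replicate 2 gave 24. Calls over all genes without these libraries, in the same order, were 3417, 2612, 3706, 2805 and 4244, beside 4210 with all libraries. After swimming, 0 genes were called without replicate 3 of the Des+/+ group, 1 without replicate 2 of that group or replicate 1 of the Des-/- group, 3 without replicate 2 or 3 of the Des-/- group and 4 without replicate 1 of the Des+/+ group. Calls over all genes after swimming fell as well, from 1392 to 74 without Des+/+ replicate 3, and to between 505 and 817 without any other swim library. The median log2 change stayed between 0.17 and 0.40 without swimming and between 0.36 and 0.48 after it in these fits. Scaling to total assigned reads, which moved the median of all genes to 0.29 without and to 0.17 after swimming, gave 50 and 28 called genes, beside 5313 and 1554 of all 13158 genes.

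**Figure D2:**
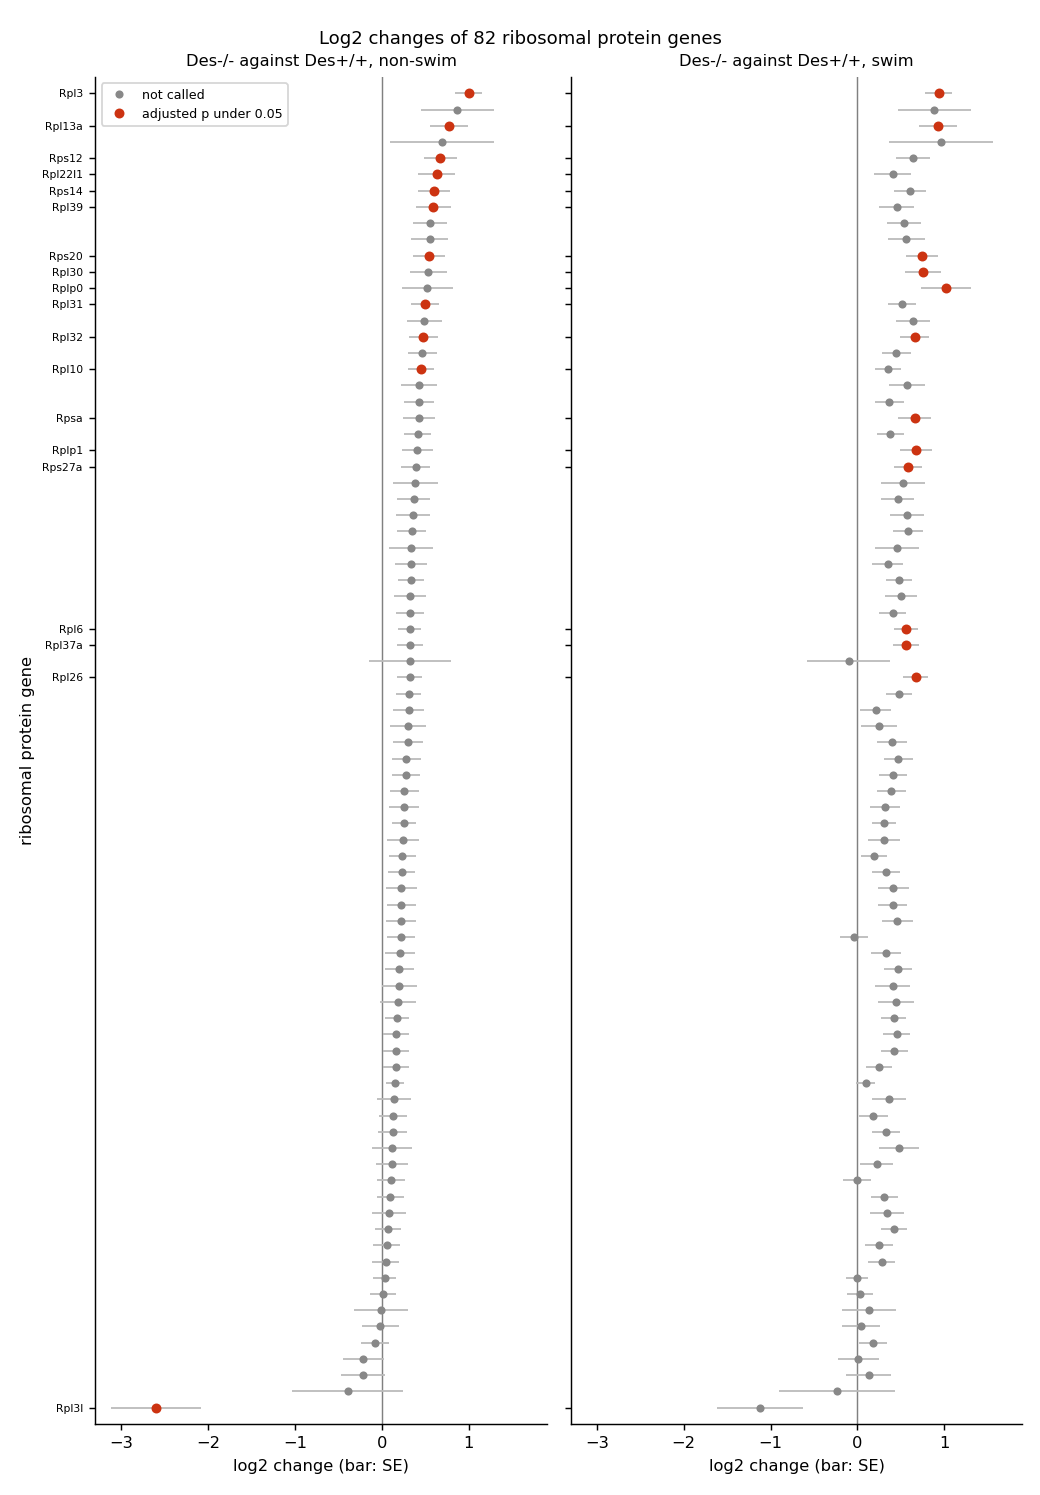
Log2 change of each of the 82 tested ribosomal protein genes in Des-/- against Des+/+ cells without swimming (left) and after swimming (right), in the order of the left panel; points are fitted changes, bars are standard errors, and red points passed the test (11 on the left, 12 on the right); genes called in either panel are labelled. Rpl3l stands apart at the bottom (-2.60 and -1.13) and Rpl3 is at the top of the left panel (1.00).

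Rpl3l, the striated muscle form of the large subunit protein, was the only ribosomal protein gene called lower in any comparison. It lies on chromosome 17 (24727820 to 24736143 in GRCm38, plus strand), 5890 bases downstream of Rps2. Its level was 261, 381 and 297 CPM in the Des+/+ non-swim libraries, 270, 182 and 223 CPM in the Des+/+ swim libraries, 55.0, 87.1 and 13.1 CPM in the Des-/- non-swim libraries and 128, 115 and 66.4 CPM in the Des-/- swim libraries. Every Des-/- library was below every Des+/+ library. Without swimming Rpl3l fell by 2.60 ± 0.52 on the log2 scale (SE, edgeR adjusted p = 0.00387) and passed the test under all 20 alternatives; without Des-/- replicate 3, where it was lowest, it fell by 2.14 (edgeR adjusted p = 0.0023). After swimming the difference was -1.13 ± 0.50 (edgeR adjusted p = 0.151). That value passed the test when only the 6 swim libraries were fitted (edgeR adjusted p = 0.0436) and when Des-/- non-swim replicate 3, which is not part of the comparison, was left out of the shared estimate of the spread (edgeR adjusted p = 0.0205).

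The genotype difference of Rpl3l was 1.47 ± 0.70 log2 units smaller after swimming than without it, which did not pass the test (edgeR unadjusted p = 0.0569, adjusted p = 0.312). Its changes with swimming were -0.48 in Des+/+ and 1.00 in Des-/- cells, neither of which passed. The 8 cardiomyocyte markers moved with it: their changes without swimming ran from -2.76 to -1.85 and included the size of the Rpl3l change. Relative to 1000 CPM of summed cardiomyocyte markers, a measure chosen after the values were seen, Rpl3l was at 4.37 to 4.80 CPM with desmin and 2.35 to 4.17 CPM without it among non-swim libraries, and at 5.50 to 6.30 CPM and 4.49 to 5.20 CPM among swim libraries. On this relative scale the genotypes were apart within each condition, but the Des-/- swim libraries overlapped the Des+/+ non-swim libraries, and no test was made of it.

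Rpl3, the general form of the same protein, changed in the opposite direction. On chromosome 15 (80077791 to 80091868, minus strand), its level was 222, 243 and 258 CPM in the Des+/+ non-swim libraries, 287, 242 and 288 CPM in the Des+/+ swim libraries, 505, 386 and 555 CPM in the Des-/- non-swim libraries and 510, 524 and 529 CPM in the Des-/- swim libraries. Every Des-/- library was above every Des+/+ library. The log2 change was 1.00 ± 0.16 without swimming (edgeR adjusted p = 0.0013) and 0.93 ± 0.16 after swimming (edgeR adjusted p = 0.0119), and was the largest called rise of any ribosomal protein gene without swimming. It passed under all 20 alternatives without swimming, and after swimming under all but the fit without Des+/+ swim replicate 3 (edgeR adjusted p = 0.0512). The genotype change did not differ detectably between the conditions (interaction -0.064 ± 0.22, edgeR adjusted p = 0.904). The summed fibroblast markers in the same order of libraries were 8785, 7960 and 39661 CPM in the Des-/- non-swim group, which ranked as Rpl3 did, and 4157, 3638 and 13416 CPM in the Des-/- swim group, where Rpl3 varied little. Their part in the Rpl3 values was not tested.

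**Figure D3:**
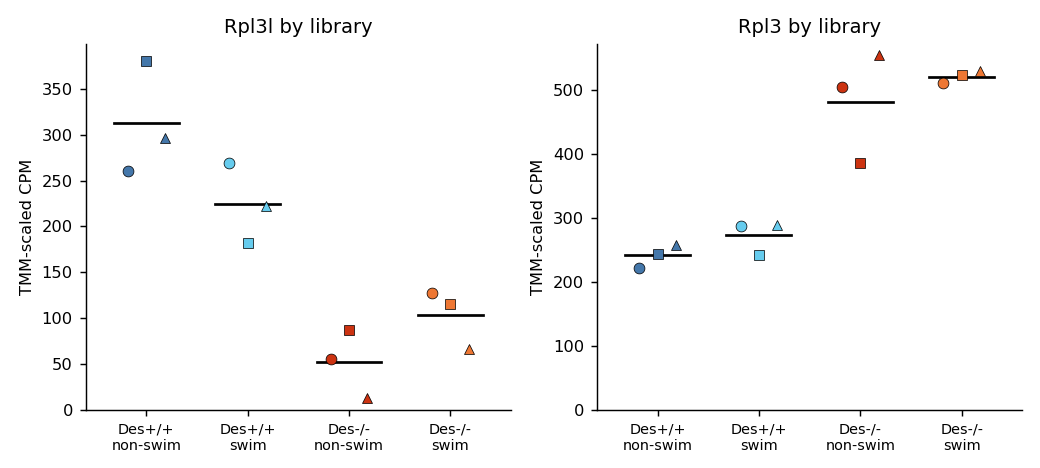
Scaled level (CPM) of Rpl3l (left) and Rpl3 (right) in each library of the 4 groups; circles, squares and triangles are replicates 1, 2 and 3 and bars are group means. For both genes the 6 Des-/- libraries do not overlap the 6 Des+/+ libraries, with Rpl3l at 13.1 to 128 CPM against 182 to 381 CPM and Rpl3 at 386 to 555 CPM against 222 to 288 CPM.

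Set against each other within a library, Rpl3l had fewer reads for each read of Rpl3 in Des-/- than in Des+/+ cells. The part of cell composition in this ratio was not tested. There were 117, 156 and 115 reads of Rpl3l for every 100 reads of Rpl3 in the Des+/+ non-swim libraries and 93.9, 75.1 and 77.3 in the Des+/+ swim libraries. In Des-/- cells there were 10.9, 22.6 and 2.36 without swimming and 25.03, 22.0 and 12.5 after swimming. The log2 ratio was 3.02 lower in Des-/- than in Des+/+ cells over the 2 conditions (exact permutation test within conditions, two-sided p = 0.005, the smallest it allows, adjusted p = 0.0167 over 10 tests), and its difference with swimming was 0.27 (exact permutation p = 0.8). That difference is a mean over the 2 genotypes, in which the ratio moved in opposite directions. The mean log2 ratio went from 0.36 to -0.29 with swimming in Des+/+ and from -3.58 to -2.39 in Des-/- cells. Per kilobase of annotated exon, the mean level of Rpl3l was 190 CPM against 76.0 CPM for Rpl3 in the Des+/+ non-swim group and 31.5 CPM against 152 CPM in the Des-/- non-swim group. After swimming these were 137 against 85.8 CPM in Des+/+ and 62.7 against 164 CPM in Des-/- cells, so that on this scale Rpl3l was the higher of the pair with desmin and the lower without it. Reads with more than 1 alignment were not counted: 59.9% of the 100-base windows of Rpl3 transcripts also occur in transcripts of other genes and none of those of Rpl3l do, and the effect of this on the ratio was not tested.

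The same ratios were formed for 4 other paralog pairs with enough reads. Rpl36al, an intronless relative of Rpl36a, lost ground to it in Des-/- cells: it had 25.1 ± 1.95 and 23.4 ± 0.74 reads per 100 of Rpl36a in the Des+/+ non-swim and swim groups, and 19.4 ± 2.71 and 17.4 ± 1.42 in the Des-/- groups (SD, n = 3). The log2 ratio was 0.40 lower in Des-/- cells (exact permutation p = 0.005, adjusted p = 0.0167), and no Des-/- library reached the lowest Des+/+ library. The ratio of Rpl7l1, a relative of Rpl7 that acts in ribosome assembly, went down with swimming, from 13.1 ± 1.04 to 11.4 ± 0.49 reads per 100 of Rpl7 in Des+/+ and from 12.9 ± 1.00 to 9.07 ± 0.68 in Des-/- cells. Its log2 ratio was 0.35 lower after swimming (exact permutation p = 0.005, adjusted p = 0.0167). Neither gene passed the test for swimming by itself: Rpl7l1 had log2 changes of -0.15 in Des+/+ and -0.21 in Des-/- cells, and Rpl7 had 0.048 and 0.29. Rpl7l1 held between 53.6 and 70.0 CPM in all 12 libraries and had the smallest within-group spread of the tested ribosomal protein genes (SD 0.084 on the log2 scale).

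For the remaining pairs the adjusted p did not fall under 0.05. Rpl22l1 had 19.6 ± 0.37, 18.4 ± 1.71, 27.7 ± 4.53 and 21.6 ± 4.62 reads per 100 of Rpl22 in the Des+/+ non-swim, Des+/+ swim, Des-/- non-swim and Des-/- swim groups (SD, n = 3), a genotype difference of 0.35 in the log2 ratio (exact permutation p = 0.02, adjusted p = 0.05). Rps27l, a target of p53 related to Rps27, had 23.5 ± 3.76, 18.4 ± 1.56, 19.7 ± 2.41 and 15.4 ± 2.07 reads per 100 of Rps27 in the same order. Its log2 ratio differed by -0.35 with swimming (exact permutation p = 0.025, adjusted p = 0.05) and by -0.26 with genotype (exact permutation p = 0.04, adjusted p = 0.0667). With the libraries paired by number, the ratios were the same but the smallest exact p is 0.0312 before adjustment, and the 3 that had passed had an adjusted p of 0.0625; this design has little room to pass.

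**Figure D4:**
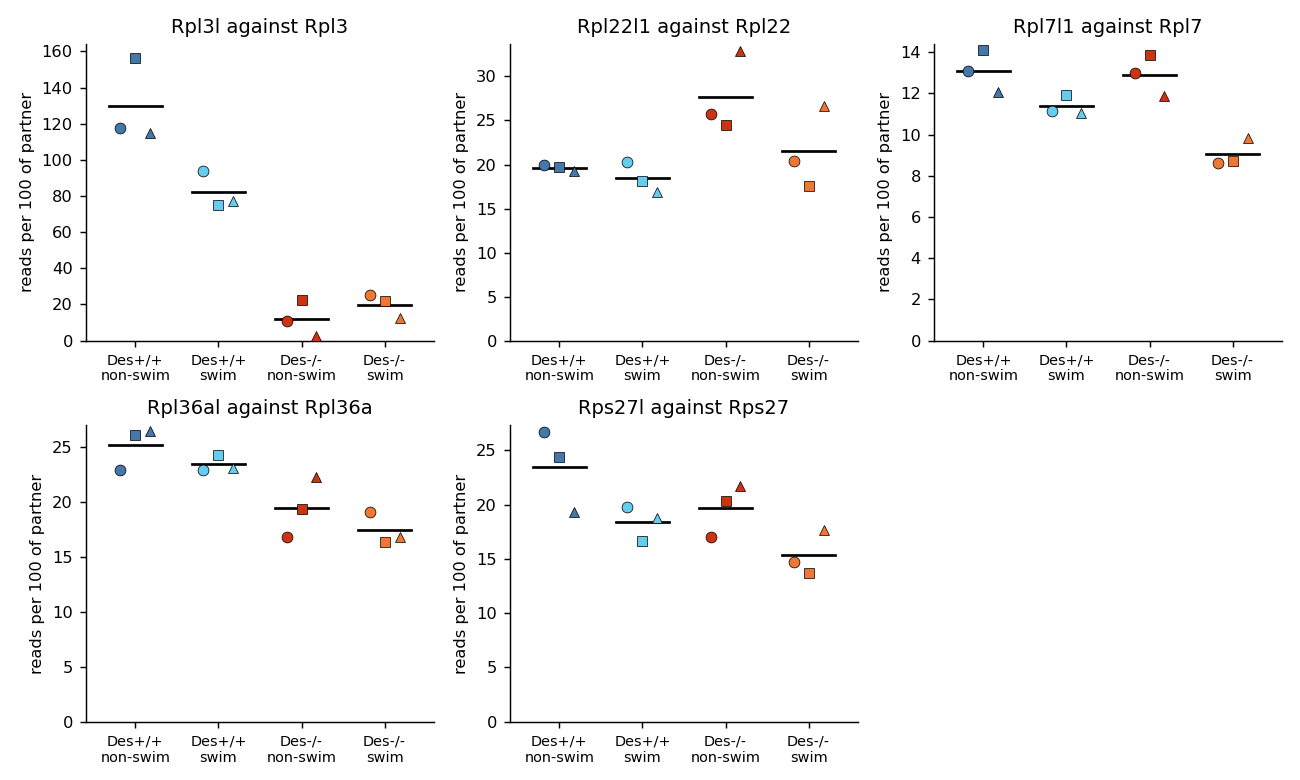
Reads of each paralog per 100 reads of its partner in each library of the 4 groups, for 5 pairs; circles, squares and triangles are replicates 1, 2 and 3, bars are group means and each axis starts at 0. The ratio of Rpl3l to Rpl3 is 75.1 or more in every Des+/+ library and 25.03 or less in every Des-/- library, while the other ratios move within narrower ranges.

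Among the other large subunit proteins, Rpl13a, which also has a role in translational silencing outside the ribosome, had the next largest called change without swimming. It was at 319, 390 and 458 CPM in the Des+/+ non-swim libraries, 510, 362 and 368 CPM in the Des+/+ swim libraries, 790, 505 and 698 CPM in the Des-/- non-swim libraries and 872, 702 and 777 CPM in the Des-/- swim libraries. The genotypes did not overlap in either condition. The log2 change was 0.77 ± 0.22 without swimming (edgeR adjusted p = 0.0195) and 0.92 ± 0.22 after swimming (edgeR adjusted p = 0.026), and the call was lost in 3 and 4 of 20 alternatives. Rpl22l1 changed by 0.63 ± 0.21 without swimming (edgeR adjusted p = 0.0409, lost in 6 of 20) and by 0.40 ± 0.21 after it (edgeR adjusted p = 0.223). Rpl39, Rpl31, Rpl32 and Rpl10 were also called higher without swimming, with log2 changes of 0.59, 0.50, 0.47 and 0.45, and the calls of Rpl39 and Rpl10 were each lost in 9 of 20 alternatives. Rpl30 changed by 0.75 ± 0.21 after swimming (edgeR adjusted p = 0.0424, lost in 8 of 20), and Rpl26, Rpl32, Rpl6 and Rpl37a were called higher there with 0.67, 0.66, 0.56 and 0.56.

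The stalk of the large subunit, built of Rplp0 with Rplp1 and Rplp2, recruits the elongation factors. Rplp0 had the largest called rise after swimming, 1.02 ± 0.29 (edgeR adjusted p = 0.046), but this call was lost in 10 of 20 alternatives, and without swimming the value was 0.52 ± 0.29 (edgeR adjusted p = 0.185). It varied widely within groups: 246, 546 and 373 CPM in the Des+/+ non-swim libraries, 416, 274 and 283 CPM in the Des+/+ swim libraries, 467, 570 and 637 CPM in the Des-/- non-swim libraries and 535, 611 and 827 CPM in the Des-/- swim libraries. Rplp1 was at 498, 518 and 678 CPM in the Des+/+ non-swim libraries, 703, 628 and 652 CPM in the Des+/+ swim libraries, 853, 594 and 800 CPM in the Des-/- non-swim libraries and 1110, 1035 and 1020 CPM in the Des-/- swim libraries. It was called higher in Des-/- cells after swimming (0.67 ± 0.18, edgeR adjusted p = 0.04, lost in 8 of 20), with no overlap of the genotypes in that condition. Rplp2 did not pass in either condition (0.084 and 0.34, edgeR adjusted p = 0.773 and 0.257).

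In the small subunit, Rps12 and Rps14 were called higher in Des-/- cells without swimming. Rps12 was at 176, 148 and 242 CPM in the Des+/+ non-swim libraries, 267, 248 and 234 CPM in the Des+/+ swim libraries, 334, 250 and 318 CPM in the Des-/- non-swim libraries and 425, 402 and 339 CPM in the Des-/- swim libraries. Its changes were 0.67 ± 0.19 (edgeR adjusted p = 0.0208) without and 0.64 ± 0.19 (edgeR adjusted p = 0.0538) after swimming. Rps14 changed by 0.60 ± 0.19 (edgeR adjusted p = 0.0304) and 0.61 ± 0.19 (edgeR adjusted p = 0.0589). For both genes the genotypes did not overlap in either condition, and the calls without swimming were lost in 5 and 6 of 20 alternatives. Rps20, which lies at the head of the small subunit, was called in both comparisons, with 0.54 ± 0.18 and 0.74 ± 0.18, and lost its calls in 10 and 5 of 20. Rps27a, made as a fusion with ubiquitin, and Rpsa, which is also the laminin receptor, were called after swimming alone, with 0.58 and 0.66; the call of Rpsa was lost in 11 of 20 alternatives.

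A few genes varied widely between replicates. On the log2 scale, the within-group SD had a median of 0.20 over the 82 genes, and among those with at least 20 reads on average it was highest for Rpl21 (1.03), Rpl3l (0.77), Rps2 (0.68) and Rps18 (0.60). These 3 genes beside Rpl3l were looked at because of this spread. Rps18 was at 92.5, 216 and 226 CPM in the Des+/+ non-swim libraries, 249, 93.3 and 103 CPM in the Des+/+ swim libraries, 373, 253 and 349 CPM in the Des-/- non-swim libraries and 184, 297 and 339 CPM in the Des-/- swim libraries. Rps2, the neighbour of Rpl3l, was at 94.6, 273 and 204 CPM, then 283, 93.1 and 97.8 CPM, then 263, 194 and 257 CPM, and 105, 116 and 220 CPM in the same order. Rpl21 was at 12.5, 128 and 138 CPM in the Des+/+ non-swim libraries, 115, 56.4 and 119 CPM in the Des+/+ swim libraries, 174, 121 and 157 CPM in the Des-/- non-swim libraries and 169, 196 and 199 CPM in the Des-/- swim libraries.

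Rps18, Rps2 and Rplp0 were low together in Des+/+ non-swim replicate 1 and in Des+/+ swim replicates 2 and 3, and Rpl21 was lowest in the first and next lowest in Des+/+ swim replicate 2. None of these libraries was low across the whole family to this degree: the medians of the 82 genes in them were -0.37, -0.22 and -0.15. The log2 changes of Rps18 with genotype were 0.87 and 0.88, the largest rise after that of Rpl3 without swimming, yet neither passed the test (edgeR adjusted p = 0.134 and 0.178). Rps2 did not change detectably (0.32 and -0.10, edgeR adjusted p = 0.639 and 0.903). In transcripts of Rps2, 43.8% of 100-base windows are shared with 36 other genes, and in Rps18 47.3% with 7 others.

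**Figure D5:**
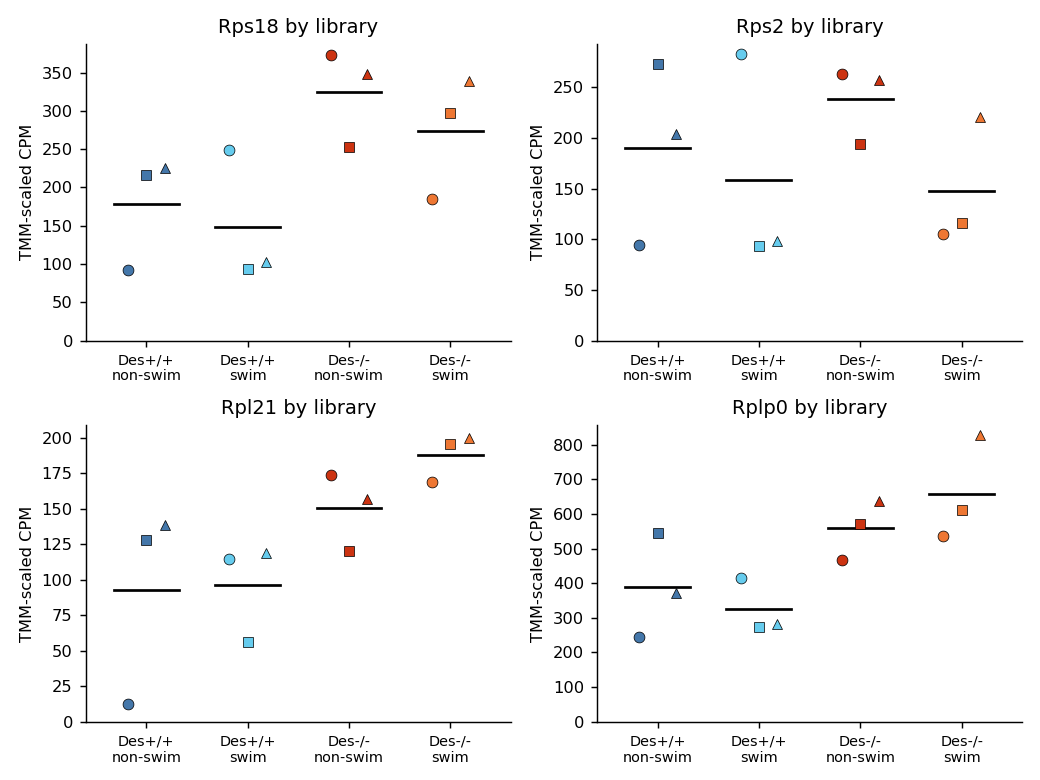
Scaled level (CPM) of Rps18, Rps2, Rpl21 and Rplp0 in each library of the 4 groups; circles, squares and triangles are replicates 1, 2 and 3 and bars are group means. Des+/+ non-swim replicate 1 is the lowest of its group for all 4 genes, with Rpl21 at 12.5 CPM against 128 and 138 CPM in the other replicates.

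The family has many pseudogenes and its reads are prone to align at several places. The share of alignments that were not unique, which the counts leave out, was 23.4% to 25.7% in Des+/+ and 23.4% to 28.5% in Des-/- libraries without swimming, and 29.1% to 31.9% and 31.4% to 37.0% after it. Over the 84 genes, the median share of 100-base windows found in other genes was 24.4% and the highest was 83.6%, in Rpl36a. The 41 tested genes with under 25% of windows shared had median genotype changes of 0.22 without and 0.45 after swimming, and the 20 with over 50% shared had 0.32 and 0.39. The 6 tested genes with no shared window, Rpl3l among them, had lower medians of 0.14 and 0.20. The part of uncounted reads in these values was not tested. Before any correction for length, mean CPM of the 82 tested genes ran from 1.09 for Rpl29 to 771 for Rpl4. Per kilobase of exon, the highest mean levels were those of Rplp1 (1518 CPM), Rps15 (770 CPM) and Rpl8 (460 CPM). The untested Rpl39l and Rpl10l had 2.83 and 0.0833 reads per library on average, under the floor of 3 reads.

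Swimming changed no ribosomal protein gene past the threshold in either genotype by edgeR or DESeq2. In Des+/+ cells 0 of 82 were called, against 0.0912% of all tested genes, and 1 had an unadjusted p under 0.05. In Des-/- cells 0 of 82 were called, against 0.0228% of all tested genes, and 9 had an unadjusted p under 0.05. Over all 13158 tested genes, 2697 in Des+/+ and 2201 in Des-/- cells had an unadjusted p under 0.05. The medians of the 82 changes were 0.11 and 0.27, beside -0.08 and -0.01 over all genes. The swim libraries were above the non-swim libraries without overlap in 2 of 82 genes in Des+/+ cells, against 12.5% of all tested genes, and in 26 of 82 genes in Des-/- cells, against 10.4%. The interaction called 0 of 82 genes and 0% of all tested genes by edgeR, where 2148 of all genes and no ribosomal protein gene had an unadjusted p under 0.05; DESeq2 called 257 genes there, none of them in the family. The median interaction of 0.15 was -0.022 without Des+/+ non-swim replicate 3.

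The other genes of the translation machinery were described from lists by function. Among ribosome components outside the symbol rule, Fau changed by 0.53 ± 0.19 (edgeR adjusted p = 0.0501) and Rack1, the scaffold at the head of the small subunit, by 0.40 ± 0.15 (edgeR adjusted p = 0.0664) without swimming, and neither passed the test. Of the 3 genes of this list, 2 were called higher with upper-quartile scaling or total assigned reads, and 1 with RLE scaling, in both conditions. Of 10 elongation genes, 2 were called higher and 1 lower without swimming, with a median of -0.049, and 0 were called after swimming, with a median of 0.19. The pair of elongation factors that load tRNA also changed in opposite directions without swimming. Eef1a2, the form of muscle and neurons, fell by 2.31 ± 0.43 (edgeR adjusted p = 0.00291) and Eef1a1, the general form, rose by 0.66 ± 0.20 (edgeR adjusted p = 0.0261). For each 100 CPM of Eef1a1 there were 61.7 to 125 CPM of Eef1a2 in Des+/+ against 4.24 to 20.5 CPM in Des-/- libraries without swimming, and 27.5 to 49.2 against 9.44 to 17.6 CPM after swimming. Pabpc1, the poly(A)-binding protein, whose mRNA is also of the oligopyrimidine class, rose by 0.89 ± 0.21 without swimming (edgeR adjusted p = 0.00858).

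Of 32 initiation factors tested, 9 were called lower and 0 higher without swimming, with a median of -0.20, and 5 lower and 0 higher after swimming, with a median of 0.016. Eif4e, which binds the cap, fell by 1.08 ± 0.15 (edgeR adjusted p = 0.000903), Eif2b4, a subunit of the exchange factor of eIF2, by 0.73 ± 0.18 (edgeR adjusted p = 0.0108) and Eif1, which guards start codon choice, by 0.72 ± 0.14 (edgeR adjusted p = 0.00348). The direction of this group depended on scaling: with total assigned reads 3 were called higher and 3 lower without swimming, with a median of 0.058, and with upper-quartile scaling 1 and 9. After swimming, 1 was called higher and 1 lower with total assigned reads, and 0 and 1 with upper-quartile scaling. Of 46 ribosome biogenesis genes, 1 (Nhp2) was called higher and 7 lower, among them Polr1a, the large subunit of RNA polymerase I (-1.01), its initiation factor Rrn3 (-0.88) and Nop10 (-0.69); with total assigned reads 10 were called higher and 2 lower, and with upper-quartile scaling 3 and 5. Of 6 chaperones that escort new ribosomal proteins, Heatr3 (-0.76) and Pdcd2 (-0.62) were called lower and none higher, with a median of -0.38; with upper-quartile scaling or total assigned reads 1 was called lower, with medians of -0.28 and -0.13. Of 18 genes of mTORC1 and the control of oligopyrimidine mRNAs, Myc was called higher (2.64) and 6 lower, with Tsc2 (-0.72) and Eif4ebp1 (-0.66) the largest; with total assigned reads 2 were higher and 1 lower, and with upper-quartile scaling 1 and 3. Larp1 changed by -0.12 ± 0.14 (edgeR adjusted p = 0.547). The changes given here for single genes, and the biogenesis, chaperone and mTORC1 counts, are those without swimming. After swimming, 1 biogenesis gene was called higher and 2 lower (median 0.0012), and 0 chaperones were called (median -0.082). Of the mTORC1 list 1 was called higher and 2 lower there (median -0.060). Beside these lists stand 32% of all genes called without and 10.6% after swimming, and no list was tested as a set.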

How the data were processed

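Poly-A RNA of adult cardiomyocytes was sequenced in 12 libraries, grouped by the sample labels. The authors deposited raw counts for each gene: reads were aligned to GRCm38 (mm10) with HISAT2 2.2.1, handled with SAMtools 1.13 and counted by HTSeq in reverse-strand mode, with no normalisation; reads aligned at several places are not counted. The labels and the methods name different library kits, of which only the latter is described as directional, so whether the reads carry strand is not settled here. Uniquely aligned reads outside any gene were on average 36.4% in the Des+/+ non-swim and 60.0% in the Des-/- swim group. They were 34.0% to 39.3% in Des+/+ and 34.2% to 52.3% in Des-/- libraries without swimming. After swimming they were 45.9% to 50.4% and 57.2% to 64.5%, without overlap. Their part in the genotype differences was not tested. Counts of all 21493 genes were fitted in R 4.3.3 with edgeR 4.0.16 (filterByExpr, TMM, 4 group means, quasi-likelihood tests, 8 residual degrees of freedom); 13158 genes were tested, the Benjamini-Hochberg adjustment ran over all of them, and calls needed an adjusted p below 0.05. Levels are TMM-scaled CPM. Where a gene was counted as "lost" in alternatives, the call did not hold in that number of 20 refits (4 scalings, no filter on low counts, DESeq2 1.42.0, a replicate block, 6 libraries only, and each library left out). Paralog ratios were log2((count + 0.5)/(partner + 0.5)), for pairs with a mean count of at least 20 each, and were tested by exact permutation over 400 arrangements within strata. Positions and exon lengths came from GENCODE M21 (84 of 84 genes matched). The fits were tested on simulated counts.

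The family, the gene lists and the tests were chosen with earlier results of these data known. Named genes were Rpl3l, Rpl3, the paralogs, Rplp0, Rplp1, Rplp2 and Rpsa, the 5 called genes of largest change per direction and comparison, the 5 highest and 5 lowest by mean CPM, and the 3 called genes of largest change per list; other names were chosen after their values were seen. Same-numbered libraries were checked for pairing: only for swimming in Des-/- were all 3 correlations of their deviations over 0.1 (0.36, 0.32 and 0.60). Precision is limited by 3 libraries per group and, for low genes, by depth: 3 reads correspond to 0.248 to 0.694 CPM, for counting error only. Columns of the authors' own comparisons were not among the files used. Some items are not reported here.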

Additional observations from a re-analysis of the deposited data

Results flagged for a closer look

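The share of alignments that were not unique lies outside the counts analysed and was above the highest library of the Des+/+ non-swim group (25.7%) on average in each other group. It was 30.4% in the Des+/+ swim group, 26.2% in the Des-/- non-swim group and 34.0% in the Des-/- swim group (means of 3 libraries), where the Des+/+ non-swim mean was 24.3%. Reads of ribosomal protein genes that also match their pseudogenes are in this share, and how many of them it holds was not analysed here.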

How the results depend on the processing

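Rpl3l and Rpl3 kept their calls without swimming under all 20 alternatives, with log2 changes of -3.21 to -2.14 and 0.89 to 1.133 when single libraries were left out. Called ribosomal protein genes without swimming numbered 11, and 24 with upper-quartile scaling, 50 with total assigned reads, 4 with only the 6 libraries, 18 with DESeq2, 5 with the study's filter (unadjusted p, absolute log2 change of at least 0.6, mean count of at least 20) and 2 to 24 without single libraries; after swimming they numbered 12, and 21, 28, 15, 28, 13 and 0 to 16 in the same order. Calls over all genes in these fits were, without swimming, 4210 of 13158, and 4526 of 13158, 5313 of 13158, 3420 of 12913, 4754 of 14602, 4212 of 13158 and 2612 to 4590, and after swimming 1392 of 13158, and 1404 of 13158, 1554 of 13158, 1080 of 12475, 2263 of 14252, 2313 of 13158 and 74 to 2142. In all these fits the median change stayed positive. The swimming and interaction comparisons called 0 under every alternative. Rpl3l after swimming was -1.11 and passed with only the 6 libraries, and ranged from -1.31 to -0.89 without single libraries; its interaction ranged from 1.01 to 2.08 and its changes with swimming from -0.63 to -0.31 in Des+/+ and from 0.55 to 1.60 in Des-/-. Rpl3 after swimming ranged from 0.86 to 0.97, its change with swimming in Des-/- from -0.024 to 0.23 and its interaction from -0.20 to 0.044.

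With a replicate block, 13 ribosomal protein genes were called without and 12 after swimming, and 0 in the other comparisons. Over all 13158 tested genes, 4073 were called without and 1309 after swimming in this fit. The block changed no other count of called ribosomal protein genes, also for swimming in Des-/-, where the deviations of same-numbered libraries correlated. The labels give only a replicate number, so whether same-numbered libraries share more than that is not known for any comparison. With the block, the log2 ratios of Rpl3l to Rpl3 (-3.02 with genotype), Rpl7l1 to Rpl7 (-0.35 with swimming) and Rpl36al to Rpl36a (-0.40 with genotype) were the same and had an adjusted p of 0.0625 by an exact permutation test, whose smallest p is 0.0312 before adjustment. Without single libraries these ratios ranged from -3.38 to -2.57, from -0.38 to -0.32 and from -0.45 to -0.35; Rpl22l1 to Rpl22 from 0.26 to 0.41 (genotype) and from -0.31 to -0.17 (swimming), Rpl7l1 to Rpl7 from -0.20 to -0.14 (genotype), Rps27l to Rps27 from -0.32 to -0.21 (genotype) and from -0.42 to -0.30 (swimming), and Rpl3l to Rpl3 with swimming from -0.19 to 0.63.

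Values near 0 changed sign without passing any test. Rpl36al without swimming was 0.081 with upper-quartile scaling, 0.23 with total assigned reads and 0.041 with no filter, and ranged from -0.19 to 0.27 without single libraries and from -0.058 to 0.099 after swimming. Rplp2 without swimming ranged from -0.038 to 0.33, Rps27l from -0.080 to 0.073 without and from -0.072 to 0.16 after swimming, and Rpl29, with 9.08 reads on average, from -0.81 to 0.50 and from -0.81 to 0.15. The causes were not tested. Depth limits Rpl29, Rpl39l and Rpl10l; elsewhere the spread between 3 pools limits the tests.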
